A study of Mus musculus with 2 samples.

Results

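The genes described here are those whose transcript level was lower in brown adipose tissue labelled 3bKO than in that labelled fl/fl, with 13 genes set aside (Dio2, Ppargc1a, Slc27a2, Gk, Pdk4, Kcnk3, Cfd, Acacb, Fbp2, Met, Vegfa, Nr4a1 and Hspa1b). They were selected on the measured values themselves: every gene whose 3bKO value lay below its fl/fl value was taken. This gave 103 genes out of 628 listed, after the 13 were removed from the 116 lower ones. The direction of these genes is therefore a description and not a finding. RNA was measured by RNA-seq in 1 library of each genotype. Both libraries were labelled as brown adipose tissue of C57BL/6 mice on a high-fat diet with 60% fat for 20 weeks, and the labels give neither sex nor age. fl/fl mice carry loxP sites in the Dnmt3b gene, which encodes an enzyme that sets new DNA methylation, and in 3bKO mice this gene is deleted by a Cre recombinase. In the study the Cre was driven by the Ucp1 promoter, which is active in brown and beige adipocytes. However, the table's name mentions Myf5, a gene of the muscle and brown fat lineage. The study's discussion also cites another Dnmt3b deletion, made with a Myf5-Cre line in cells of that lineage. The Cre line of this library is therefore uncertain. The study's methods describe RNA-seq of chow-fed mice given as RPKM on another genome build, so whether these libraries belong to that experiment is uncertain as well. Dnmt3b itself is not among the listed genes, so the deletion could not be checked, and every direction rests on the column headings.

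Brown adipose tissue burns fatty acids and glucose to make heat, under the control of sympathetic nerves that raise cyclic AMP in the adipocytes. The tissue is densely supplied with blood, so that extracts of the whole pad also hold RNA of red blood cells, vessels, macrophages and nerve. Cytochrome P450 enzymes, best known from the liver, insert oxygen into drugs, steroids and fatty acids, and several of them are also made in fat. In red blood cell precursors, Alas2 makes the first product of heme synthesis and the globin genes encode the protein chains of hemoglobin.

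Expression was given as FPKM, the fragments of a gene scaled to transcript length and to the mapped fragments of the library, so that levels of different genes could be set side by side. With 1 library per genotype there was no replicate error and no test, and each ratio compares 2 libraries. The table holds only selected genes. No gene in it had an absolute log2 ratio below 0.50, and a gene that is absent from it has no value here. At the edge of the rule, the lower genes with the smallest difference were Bnip3 (291 FPKM in fl/fl and 205 in 3bKO), Stip1 (70.1 and 49.2) and Tmx4 (16.1 and 11.3). On the other side, Tuba1b was 121 FPKM in fl/fl and 171 in 3bKO, and Plec was 8.3 and 11.8.

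Of the 103 genes, 98 were protein coding, 2 were long noncoding RNAs and 3 were transcribed pseudogenes. Their median level was 24.4 FPKM in fl/fl, with a range from 0.79 to 1480 FPKM, and 15.4 FPKM in 3bKO. The median log2 ratio of 3bKO over fl/fl was -0.72, which is 60.7% of the fl/fl level. Of the 103, 23 were lower by more than 2-fold and 80 by less. Among all 628 listed genes, 18.5% were lower in 3bKO at any ratio, 4.46% were lower by more than 2-fold and 81.5% were higher. The rule used these same values, so nothing is read from the comparison with these shares. Most differences were small: 58 genes had a log2 ratio above -0.75, and 22 lay between that value and 2-fold. Within this selected table, the larger differences were found at lower levels. The filter behind the selection is not stated, so its part in this pattern cannot be told apart. Of the 23 genes past 2-fold, 13 had under 10 FPKM in fl/fl and the median was 8.46 FPKM, whereas 8 of the other 80 were under 10 FPKM and their median was 29.6 FPKM. Of 12 genes above 100 FPKM in fl/fl, only Hbb-b1 was past 2-fold.

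**Figure D1:**
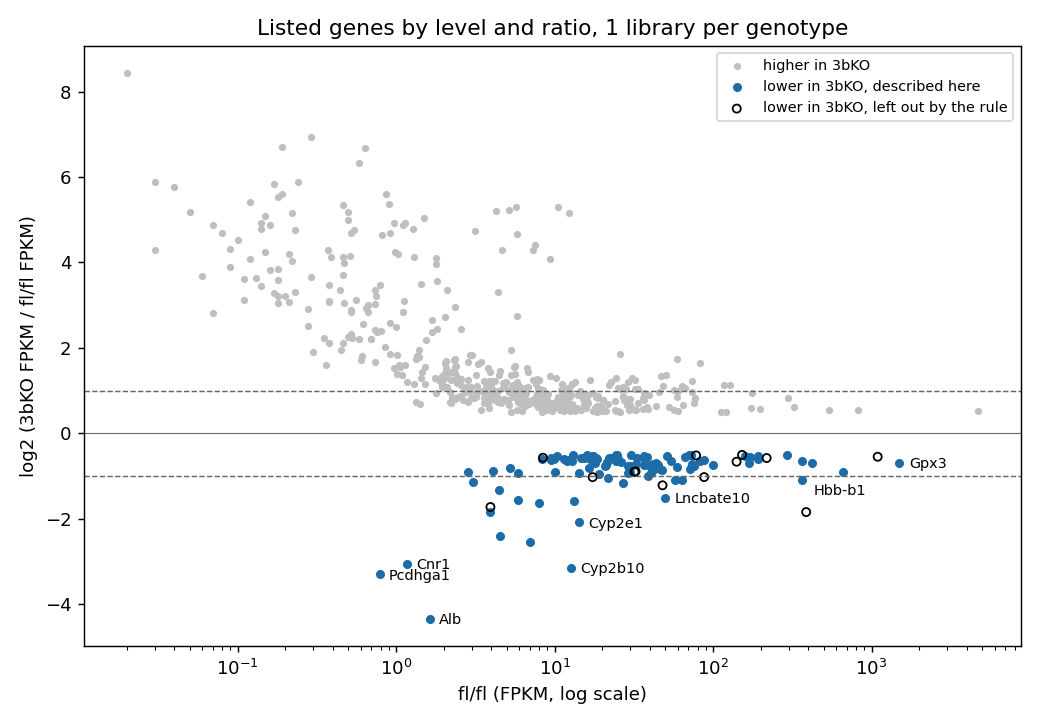
Each point is a listed gene, placed by its fl/fl level (FPKM, log scale) and its log2 ratio of 3bKO over fl/fl, in 1 library per genotype. Blue points, the lower genes described here, mostly lie just below the empty band around 0 while Alb, Cnr1 and Cyp2b10 are far below it at low levels. Open circles are the 13 set aside, grey points the higher genes, and genes at 0.01 FPKM in either library and those not reported here are not drawn.

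The 3 listed genes of hemoglobin production were lower in 3bKO, Alas2 and Hbb-b1 by more than 2-fold and Hba-a2 by less. Alas2, which lies on chromosome X from 150547417 to 150570622 in GRCm38 (mm10), was 27.1 FPKM in fl/fl and 12.1 in 3bKO, a log2 ratio of -1.16. Hbb-b1, a beta-globin gene, was 367 FPKM in fl/fl and 171 in 3bKO, with a log2 ratio of -1.10. Hba-a2, an alpha-globin gene on chromosome 11 from 32296492 to 32297310, was 422 FPKM in fl/fl and 262 in 3bKO, at -0.69. These genes were at 44.7 to 62.1% of their fl/fl level. Sptb, the beta-spectrin of the red cell membrane that skeletal muscle also makes, went the other way, with 0.11 FPKM in fl/fl and 0.96 in 3bKO. In a whole tissue, fewer red blood cells and less RNA per cell cannot be told apart.

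The globin values carry a limit of their own. The coding sequences of Hba-a2 and Hba-a1 differ at 1 of 429 bases, and those of Hbb-b1 and Hbb-b2 at 1 of 444 bases (GENCODE transcripts), and neither Hba-a1 nor Hbb-b2 is among the listed genes. The sources used here do not say how fragments were divided between such copies. In the RefSeq annotation of GRCm38.p6, the beta-globin genes on the chromosome 7 reference, the haplotype of C57BL/6, are named Hbb-bt (103812524 to 103813923) and Hbb-bs (103826523 to 103827928). The gene named Hbb-b1 is given there positions 38285 to 39684, outside this cluster. Neither Hbb-bs nor Hbb-bt is listed, so which beta-globin copy the reads of Hbb-b1 came from cannot be told apart.

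Promoter sequences were taken from RefSeq (GRCm38.p6). Windows from 250 bases before to 50 bases after a transcription start were found for 81 of the 103 genes, among them Hba-a2 and Alas2 but not Hbb-b1. Erythroid promoters are known for GATAA, bound by GATA factors, for CACCC, bound by Krüppel-like factors, and for CCAAT. These letters were searched on both strands. GATAA was held by 25.4% of all 32851 windows, CACCC by 57.5% and CCAAT by 37.4%, so that a single match is common. Of the 81 genes, 14 held GATAA, 52 CACCC and 44 CCAAT in at least 1 window. A gene can have several windows, so these gene counts are not like the shares of windows. Counted by window, 15 of the 103 windows of these genes held GATAA, 63 CACCC and 47 CCAAT. Hba-a2 is printed from base -190 to base -50 (chr11:32296302-32296442, plus strand) and Alas2 from -100 to -20 (chrX:150547317-150547397, plus strand), with matches on either strand in capitals.
Hba-a2: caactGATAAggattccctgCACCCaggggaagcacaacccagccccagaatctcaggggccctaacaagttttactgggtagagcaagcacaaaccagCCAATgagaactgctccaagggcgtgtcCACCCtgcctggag
Alas2: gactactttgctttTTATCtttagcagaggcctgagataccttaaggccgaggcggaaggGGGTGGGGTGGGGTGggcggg
In Hba-a2 the stretch holds a single GATAA, followed by a CACCC on each side of the only CCAAT, all read on the strand of the gene. In the Alas2 stretch no CCAAT was found, and all matches lie on the other strand: 1 GATAA, printed as its reverse complement, and 3 CACCC that abut each other from -40 to -26. A match describes the sequence and does not show that a factor binds there.

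The cytochrome P450 genes split by direction. Of 99 protein-coding genes of this family in the annotation, 4 had a value, 2 lower and 2 higher in 3bKO, and all 4 differed by more than 2-fold. Cyp2b10, the enzyme that phenobarbital induces in mouse liver through the receptor CAR, was 12.7 FPKM in fl/fl and 1.42 in 3bKO. Its log2 ratio of -3.16 corresponds to 11.2% of the fl/fl level, the lowest share among those of the 103 genes that reached 1 FPKM in each library. Cyp2e1, which oxidizes ethanol and ketones, was 14.3 FPKM in fl/fl and 3.36 in 3bKO, at -2.09. In contrast, Cyp26b1, which degrades retinoic acid, was 1.4 FPKM in fl/fl and 5.4 in 3bKO, and Cyp1b1, a steroid-oxidizing enzyme of mesenchymal cells, was 2.42 and 6.07 FPKM. Both lower genes lie on chromosome 7, Cyp2b10 from 25897658 to 25926624. The nearest relatives of Cyp2b10 in the coding sequence, Cyp2b13 with 87.0% and Cyp2b9 with 86.2% identity, had no value here. The Cyp2e1 promoter is shown from -80 to -20 (chr7:140763739-140763799, plus strand), since it holds TATAAA, the letters of a TATA box, as do 13.6% of all windows. Capitals mark CCAAT on the other strand, CACCC and TATAAA.
Cyp2e1: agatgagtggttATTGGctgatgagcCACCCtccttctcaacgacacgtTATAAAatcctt
In the Cyp2b10 window TATAAA was not found, and the matches were CACCC at -244 and a CCAAT on the other strand at 10.

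Other enzymes of drug, steroid and peroxide metabolism, grouped from the lower genes alone, were lower by less. Fmo1, a flavin monooxygenase, was 171 FPKM in fl/fl and 116 in 3bKO. Hsd11b1, which regenerates active glucocorticoid, was 66.8 FPKM in fl/fl and 45.7 in 3bKO, and Dhrs9, a retinol and steroid dehydrogenase, was 24.4 and 15.7. Dhrs3, by its name of the same family as Dhrs9, was higher in 3bKO, at 36.89 and 68.15 FPKM. Gpx3, the secreted glutathione peroxidase, had the highest level of all 103 genes, with 1480 FPKM in fl/fl and 918 in 3bKO, at a log2 ratio of -0.69. Gpx8, a peroxidase of the endoplasmic reticulum, was 36.7 and 21.9 FPKM, at -0.74. These were the only 2 of 8 glutathione peroxidases with a value, a family grouped after the values were seen. Of the 70 genes on the list of conjugation and detoxification, 5 had a value: Fmo1 and Gpx3 were lower, and Aldh1a1, Gstp2 and Sult1a1 were higher. The list as a whole thus had no single direction.

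The plasma proteins made mainly by liver included the gene with the most negative ratio above the floor. Alb, serum albumin, was 1.63 FPKM in fl/fl and 0.08 in 3bKO, a log2 ratio of -4.35 between 2 low values. It was the only one of 8 hepatocyte markers with a value. C3, the central complement protein, was 192 FPKM in fl/fl and 127 in 3bKO, whereas the complement gene Cfb, at 6.55 and 11.3 FPKM, was higher in 3bKO. Of 43 genes on the list of acute phase and liver secreted proteins 5 had a value, with Alb and C3 lower and 3 higher. Transferrin, Trf, at 25.03 and 35.84 FPKM, was among the higher ones, so the list had no single direction. Apoc1, an apolipoprotein that macrophages and liver make, was 365 and 234 FPKM. Of 38 genes on the list of lipid uptake, storage and lipolysis 2 had a value: Apoc1 was lower and the phospholipid transfer protein Pltp, at 43.4 and 67.7 FPKM, was higher.

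**Figure D2:**
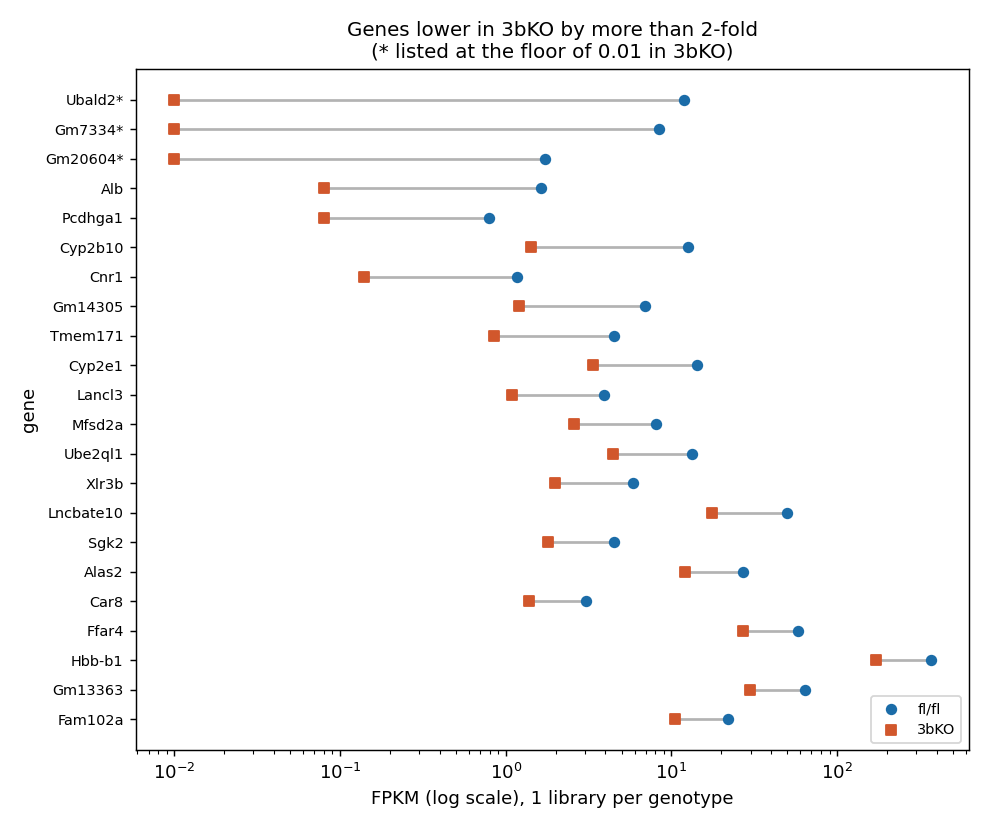
FPKM (log scale) in the fl/fl library (circles) and the 3bKO library (squares) for 22 of the genes lower by more than 2-fold, ordered by ratio. Asterisks mark Ubald2, Gm7334 and Gm20604, which were listed at the floor of 0.01 FPKM in 3bKO, and the largest gap among the other genes is that of Alb.

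Chaperone genes were found in both directions. Of 31 genes on the list of heat shock proteins and their partners 9 had a value, 6 lower and 3 higher. Hsph1, a nucleotide exchange factor of HSP70, was 40.6 FPKM in fl/fl and 21.2 in 3bKO, at a log2 ratio of -0.94. Chordc1, a partner of HSP90, was 44.0 FPKM in fl/fl and 27.2 in 3bKO, at -0.69. Dnaja1, an HSP40 that delivers clients to HSP70, was 53.9 and 34.6 FPKM, at -0.64. Hspa4l, a relative of Hsph1, was 15.3 and 10.2 FPKM, and Stip1, which joins HSP70 to HSP90, was 70.1 and 49.2 FPKM. Hspa1b, an inducible HSP70 set aside by the rule, was 3.94 and 1.19 FPKM. The 3 higher genes, Cryab (32.1 and 76.3 FPKM), Hspb6 (25.8 and 93.2 FPKM) and Hspb7 (1.03 and 18.9 FPKM), are small heat shock proteins that are abundant in muscle. Outside that list, 2 related genes picked with their values known were also higher in 3bKO: Unc45b, an HSP90 partner in the folding of muscle myosin (5.86 and 9.78 FPKM), and Hspa12a, a distant relative of HSP70 (12.2 and 19.5 FPKM). The markers of skeletal muscle were higher as well, from a summed 134.5 FPKM in fl/fl to 2136 in 3bKO, and their part in these values was not tested.

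**Figure D3:**
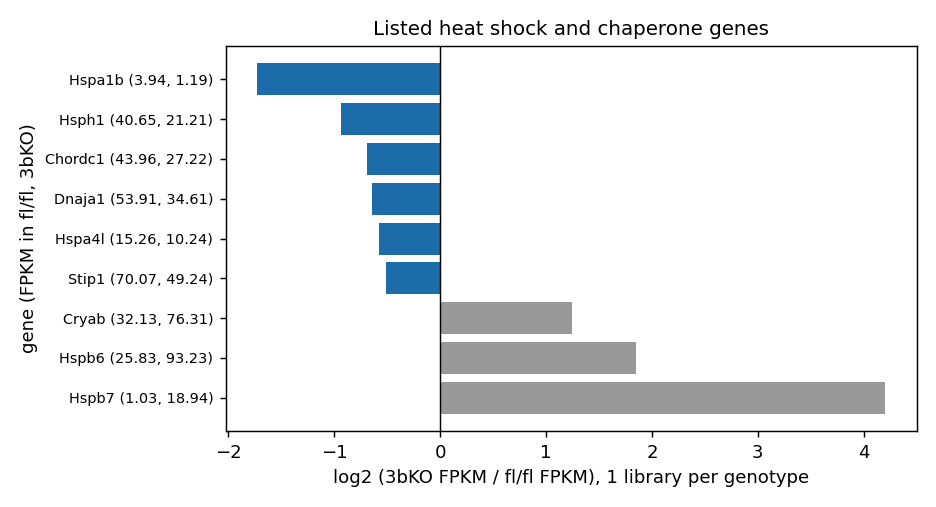
Log2 ratio of 3bKO over fl/fl for the 9 listed genes of the heat shock and chaperone list, with the FPKM in fl/fl and in 3bKO beside each name. Hspa1b, Hsph1, Chordc1, Dnaja1, Hspa4l and Stip1 lie left of 0, and Cryab, Hspb6 and Hspb7 lie right of it.

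Of the 5 lower chaperone genes described here, Chordc1 and Hsph1 hold the letters of a heat shock element close to the transcription start. This element, to which the factor HSF1 binds, was searched as 3 alternating units of GAA and TTC, each pair set apart by 2 bases. It was held by 0.603% of all 32851 windows. Among the 81 genes with a window it was found only in these 2, in 3 of the 103 windows of the 81 genes. The search was chosen after the values were seen. Chordc1 is printed from -10 to 20 (chr9:18292257-18292286, plus strand) and Hsph1 from 6 to 35 (chr5:149636281-149636310, minus strand), with the elements in capitals. Hsph1 has 2 annotated starts in the table, and positions are counted from the downstream one.
Chordc1: caaccgGAACGTTCGGGAAAATTCCTGAAg
Hsph1: atgctgcagaTTCTGGAAAGTTCtcctcag
In Chordc1, 3 overlapping matches run from -4 to 19, and in Hsph1 a single match runs from 16 to 28. The windows of Dnaja1 and Stip1 held no match, and none was found for Hspa4l.

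Acyl-CoA synthetases couple fatty acids or acetate to coenzyme A, the step before oxidation or storage. All 4 with a value out of 18 in the annotation were lower, a family grouped after the values were seen. Acsm3, for medium-chain acids, was 71.5 FPKM in fl/fl and 40.4 in 3bKO, and Acsl5, for long-chain acids, was 88.3 and 56.9. The mitochondrial short-chain enzymes Acss1 and Acss3 were 83.1 and 53.1 FPKM, and 30.4 and 18.0 FPKM, respectively. The log2 ratios of these enzymes lay between -0.83 and -0.63. On the list of fatty acid oxidation, Acsm3 and Acsl5 were the only 2 of 49 genes with a value.

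Among receptors and enzymes of lipid signals, Ffar4 (GPR120), a receptor for long-chain fatty acids, was 57.9 FPKM in fl/fl and 27.0 in 3bKO, a log2 ratio of -1.10. Cnr1, the cannabinoid receptor CB1, was 1.17 FPKM in fl/fl and 0.14 in 3bKO. Dagla, which makes an agonist of that receptor, was 12.4 and 8.02 FPKM, whereas its relative Daglb was higher in 3bKO, at 2.92 and 5.81 FPKM. Mfsd2a, which carries lysophospholipids into cells, was 8.03 and 2.6 FPKM, at -1.63. Sgpl1, the lyase of sphingosine 1-phosphate, was 76.2 and 45.2 FPKM, and Adtrp, a hydrolase of branched fatty acid esters, was 41.8 and 23.1 FPKM. In the cyclic AMP pathway, the cyclase Adcy3 was 58.8 FPKM in fl/fl and 34.2 in 3bKO, and the phosphodiesterase Pde4d was 32.7 and 19.8. Sik1, a kinase induced by cyclic AMP, was 17.4 and 12.1 FPKM. A synthesizing and a degrading enzyme of cyclic AMP were thus both lower. Of the 45 genes on the adrenergic and cyclic AMP list 4 had a value, Adcy3, Pde4d and Ffar4 lower and the cyclase Adcy7, at 2.36 and 4.15 FPKM, higher. Of 42 genes on the list of immediate early and stimulus-induced genes 7 had a value. Pde4d and Sik1 were lower, while 5 were higher, among them Fos (0.74 and 7.54 FPKM) and Egr1 (6.77 and 18.2 FPKM). Outside these 7, the set-aside gene Nr4a1 (17.4 and 8.53 FPKM) and Apold1 (14.3 and 7.46 FPKM) were lower.

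Transport of amino acids and ions gave a further set of lower genes. Glul, glutamine synthetase, had the second-highest level, with 660 FPKM in fl/fl and 355 in 3bKO, a log2 ratio of -0.90. The glutamate transporter Slc1a3 was 21.2 and 12.7 FPKM, the glutamine transporter Slc38a2 was 36.6 and 25.5 FPKM, and Kyat3, a kynurenine aminotransferase, was 24.5 and 17.2 FPKM. The aspartate aminotransferases Got1 (19.8 and 29.3 FPKM) and Got2 (17.9 and 27.2 FPKM), of the same list of amino acid metabolism, were higher. Among ion transporters, the sodium bicarbonate cotransporter Slc4a4 was 101 FPKM in fl/fl and 59.9 in 3bKO, and the chloride cotransporter Slc12a2 was 30.1 and 16.1 FPKM. Of the 10 solute carriers with a value, 5 were lower and 5 higher. Carbonic anhydrases interconvert carbon dioxide and bicarbonate, and all 3 with a value were lower, a family likewise grouped after its values were seen. Car14 was 19.0 FPKM in fl/fl and 9.83 in 3bKO, Car13 was 36.4 and 24.4, and Car8, a member without enzyme activity, was 3.04 and 1.38. The membrane protein Tmem171 was 4.53 and 0.85 FPKM, and the mitochondrial magnesium channel Mrs2 was 30.4 and 21.2 FPKM.

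**Figure D4:**
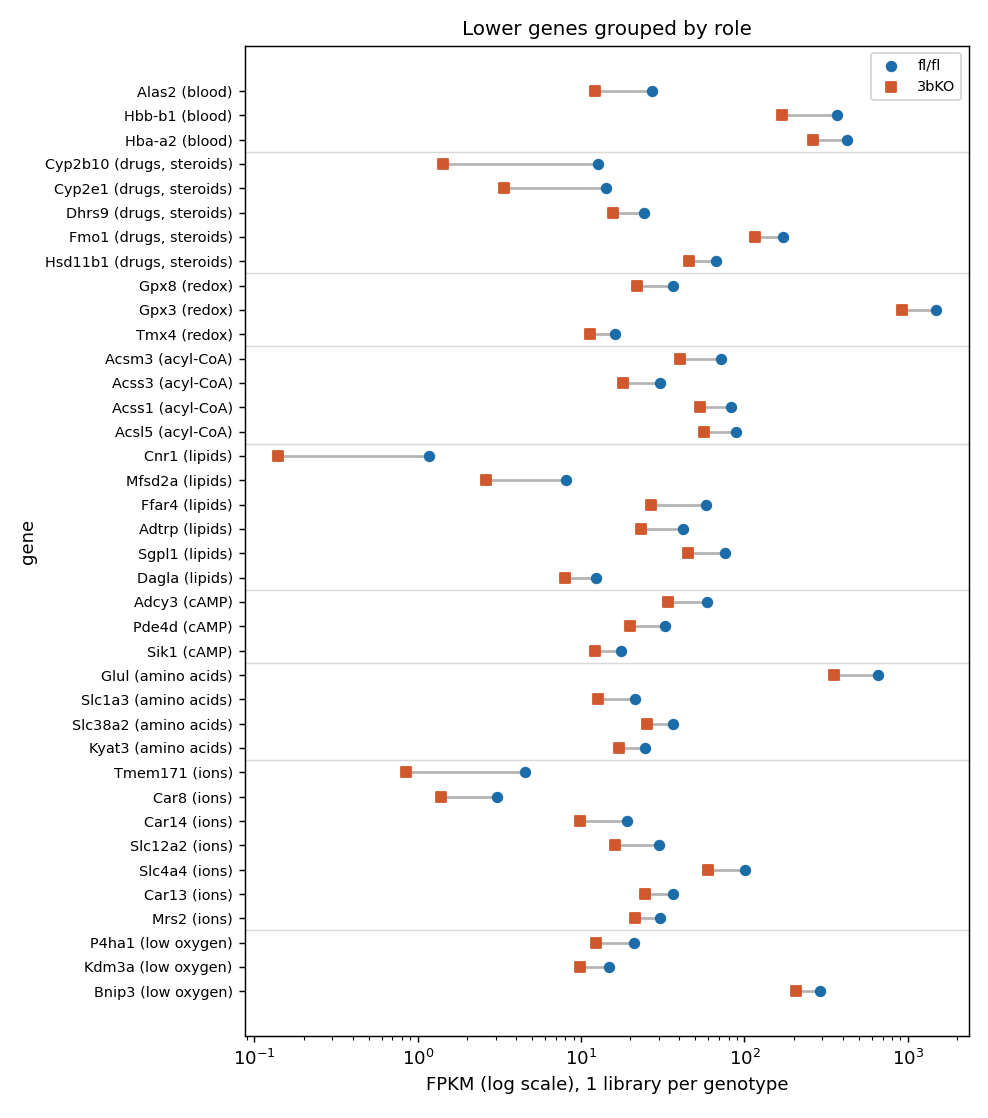
FPKM (log scale) in the fl/fl library (circles) and the 3bKO library (squares) for lower genes grouped by role, with grey lines between roles. The gaps are wide for Cyp2b10, Cnr1 and Tmem171 and narrower for Gpx3, at 1480 and 918 FPKM, and Bnip3, at 291 and 205 FPKM.

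P4ha1, Kdm3a and Bnip3, which low oxygen induces, were grouped from the lower genes alone. P4ha1, a collagen prolyl hydroxylase, was 20.9 FPKM in fl/fl and 12.3 in 3bKO. The histone demethylase Kdm3a was 14.7 and 9.87 FPKM, and Bnip3, a mitophagy receptor, was 291 and 205 FPKM. None of the lists covered the response to low oxygen, so its direction as a whole was not assessed. Among the lower genes, 7 bind, degrade or regulate mRNA, each lower by less than 2-fold. This role was assigned among the lower genes alone, and other listed genes of mRNA binding and splicing were higher in 3bKO, such as Rbm24 (0.12 and 2.04 FPKM) and Sfswap (8.66 and 13.3 FPKM). Ybx2, an RNA-binding protein of germ cells and brown fat, was 29.2 FPKM in fl/fl and 15.4 in 3bKO. Pdcd4, an inhibitor of translation initiation, was 47.8 and 26.3 FPKM, the rhythmic gene Noct was 38.3 and 25.9 FPKM, and Cpeb4, a cytoplasmic polyadenylation factor, was 18.7 and 12.3 FPKM. Lncbate10, a long noncoding RNA of brown adipocytes, was 50.1 FPKM in fl/fl and 17.6 in 3bKO, a log2 ratio of -1.51. Of the insulin and FoxO signalling list, Sgk2 (4.49 and 1.8 FPKM) and cyclin G2, Ccng2 (32.9 and 22.0 FPKM), were lower, while Igf1, Igfbp4 and Tsc22d3 were higher.

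Further genes past 2-fold were Ube2ql1, related to ubiquitin-conjugating enzymes (13.4 FPKM in fl/fl and 4.44 in 3bKO), Lancl3 (3.91 and 1.09), Xlr3b (5.88 and 1.99), Fam102a (21.8 and 10.6) and the entries Gm14305 (6.97 and 1.2) and Gm13363 (63.6 and 29.7). Further genes at high level were Ppa1, the cytosolic pyrophosphatase (192 FPKM in fl/fl and 132 in 3bKO), Entpd4, a nucleotidase of the Golgi (169 and 105), Tgoln1, of the trans-Golgi network (158 and 109), Cntfr, the receptor of ciliary neurotrophic factor (74.1 and 44.7), and Ackr3, a scavenging chemokine receptor (72.4 and 50.6). These genes covered unrelated roles and a wide range of levels. For Xlr3b and Entpd4, the annotation holds genes of like name on the same chromosome: Xlr3a and Xlr3c on X, and Entpd4b on 14. None of these relatives was listed, and their sequences were not compared here. How fragments were divided between them is not stated in the sources used here.

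The other genes were lower by less than 2-fold, and their functions were mixed. Their groups were drawn from the lower genes alone, so they do not give the direction of a function as a whole. In signalling, Sash1, an adaptor of innate immune and growth signals, was closest to 2-fold, with 38.7 FPKM in fl/fl and 19.4 in 3bKO, at a log2 ratio of -0.99. Fnip1, the partner of folliculin, was 26.3 and 16.6 FPKM, and Tiam1, an activator of the GTPase Rac, was 12.1 and 7.68 FPKM. Tbc1d9, Ptpn4, Fam126b and Phactr4 lay between -0.81 and -0.53. The actin-based motors of vesicle transport Myo5c (5.88 and 3.1 FPKM) and Myo5b (10.1 and 5.36 FPKM) had nearly equal ratios, at -0.92 each. Mapt, the microtubule protein tau, was 22.8 and 15.2 FPKM, and Fhdc1, Trip11 and Uhrf1bp1l lay between -0.88 and -0.51.

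Among the lower genes, 5 act on the matrix or on glycans, with log2 ratios between -0.75 and -0.59, and they were grouped from the lower genes alone. Other matrix genes were higher in 3bKO. All 7 listed genes of 17 on the list of matrix proteases and their inhibitors were, such as Mmp2 (7.79 and 18.7 FPKM) and Adamts2 (3.49 and 6.9 FPKM). That list does not hold Adamts9, which was lower. The collagen gene Col1a1 (22.8 and 52.2 FPKM) was higher. Sdc4, a heparan sulfate proteoglycan of the cell surface, was 44.8 FPKM in fl/fl and 26.7 in 3bKO, and Hyal1, which cuts hyaluronan, was 39.0 and 23.3. The metalloprotease Adamts9 was 12.8 and 8.1 FPKM, the chondroitin sulfotransferase Chst11 was 23.7 and 15.5 FPKM, and the galactosyltransferase B4galt1 was 22.1 and 14.7 FPKM. Among transcription and chromatin proteins, Nabp1, which binds single-stranded DNA, was 46.6 and 26.2 FPKM, at -0.83. Med10, a Mediator subunit, was 41.7 and 25.4 FPKM, Mlx, the partner of the glucose sensor ChREBP, was 21.4 and 13.4 FPKM, and the T-box factor Tbx3 was 8.33 and 5.49 FPKM. Another listed T-box factor, Tbx15, was higher in 3bKO, at 1.9 and 4.58 FPKM. Pnrc1, a nuclear receptor coactivator, was 51.3 and 35.5 FPKM. Apold1, an immediate early gene of endothelium, was 14.3 FPKM in fl/fl and 7.46 in 3bKO, at -0.93. Of 10 endothelium markers, Vwf alone had a value and was higher in 3bKO, at 3.87 and 5.86 FPKM. The neuronal adhesion protein Negr1 was 10.3 and 7.1 FPKM. Coq10b, of coenzyme Q metabolism, was 29.0 and 17.1 FPKM, Dcun1d3, a regulator of cullin neddylation, was 11.5 and 7.54 FPKM, Ankrd33b was 2.85 and 1.52 FPKM, and Gm3893 was 18.0 and 11.1 FPKM. Of the mRNA regulators, Patl1, Eri2 and Rbm26 lay between -0.61 and -0.60.

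In 3bKO, 3 of the 103 genes were listed at 0.01 FPKM, the lowest value of the table, and no ratio is given for them. Ubald2 was 11.9 FPKM in fl/fl, Gm7334, a transcribed pseudogene, was 8.46, and Gm20604 was 1.72. Gm20604 is annotated as a joint transcript of AK010878 and Moap1 and spans the gene Moap1 on chromosome 12 (102739830 to 102743661), so that reads of that stretch cannot be told apart.

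Neighbouring genes showed where reads could be shared. There were 7 pairs in which one of the 103 genes lay within 50 kb of another listed gene. In 4 pairs the 2 genes overlap, and in 3 of those both were lower. Adcy3 and Cenpo overlap by 18128 bases on chromosome 12 and had log2 ratios of -0.78 and -0.80. Acsm3 and the exonuclease gene Eri2 overlap by 1071 bases on chromosome 7, with -0.83 and -0.60. The noncoding Gm9899 overlaps the set-aside gene Kcnk3 by 450 bases on chromosome 5, with -0.51 and -0.52. The fourth pair, Pcdhga1 (0.79 FPKM in fl/fl and 0.08 in 3bKO) and Pcdhga10 (1.09 and 2.79 FPKM), are alternative first exons of the protocadherin gamma cluster that share their last exons, and differed in direction. Within the 3 pairs that do not overlap, Dagla and Fads1, Hspa4l and Slc25a31, and Tgoln1 and Capg, the second gene was higher in 3bKO. The sources used here do not state the use of strand in counting, so reads of overlapping genes may not be told apart.

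Markers of other cell types differed between the 2 libraries. All 13 skeletal muscle markers were listed and higher in 3bKO, with single genes such as Acta1, skeletal muscle actin, at 10.5 FPKM in fl/fl and 412 in 3bKO. Of 10 macrophage markers 8 were listed, all higher, with 309 and 675 FPKM, and of 9 fibroblast markers 8 were listed, all higher, with 239 and 483 FPKM. Of 12 red blood cell markers the 3 named above were listed, with a sum of 815 FPKM in fl/fl and 445 in 3bKO. None of these listed markers stood at the floor in either library. The part of this shift in the lower level of the 103 genes was not tested. Of 12 brown adipocyte markers, Dio2 and Ppargc1a alone had a value, both lower, so the identity of the tissue could not be checked from most of its defining markers. Of 10 general adipocyte markers 2 had a value: the set-aside gene Cfd was lower (387 and 108 FPKM) and Lep was higher (50.4 and 130 FPKM). No marker of nerve, neutrophils, T cells, B cells or epithelium and no sex-linked gene was listed, which says nothing about their level.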

How the data were processed

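Brown adipose tissue of 1 fl/fl and 1 3bKO sample was profiled by RNA-seq, 1 library each. The deposited values are FPKM, calculated by the authors. The submitters' processing notes name RSEM and mm10, without version, and no source used here states the filter that left 628 genes. Depth per library is unknown, and values have 2 decimals with a floor of 0.01, so no reads were recovered and no interval was computed. The number of per-sample columns of other samples was 0.

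Gene identifiers were paired with symbols and GRCm38.p6 positions in RefSeq (627 of 628 matched). Ratios are 3bKO over fl/fl on the log2 scale without pseudocount, and a gene counted as lower past 2-fold when its fl/fl value exceeded 2 times that in 3bKO. No test was run, since each genotype has 1 library. Counts in 25 pathway lists and 16 marker lists were made. Roles were assigned among the lower genes alone, after the values were seen. Members and lists were chosen with earlier results of these data known. Named genes are the 4 given markers, all genes past 2-fold, the 20 highest in fl/fl, members of lists or families, genes at the floor, and the 3 nearest a ratio of 1. Others were chosen after their values were seen. Some results that meet the rule are not reported here and not drawn. Protein comparisons were not made; coding sequences of GENCODE vM1 were aligned instead. Fold thresholds, minimum levels and pseudocounts were varied. Counting and motif search were tested on simulated data. Python 3.11.15, pandas 2.3.3, NumPy 2.4.6, Biopython 1.88 and Matplotlib 3.10.9 were used.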

Additional observations from a re-analysis of the deposited data

How the results depend on the processing

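Against 23 genes lower by more than 2-fold, the count was 79 at 1.5-fold, 14 at 3-fold and 15 with at least 5 FPKM in fl/fl, since each setting admits more or fewer genes. The other alternatives kept it between 16, where both values had to reach 1 FPKM, and 28, with the set-aside genes included. It was 21 without the cytochrome P450 genes. Of 2 alternatives chosen after seeing the data, leaving out genes at the floor gave 20, and leaving out noncoding, pseudogene, Gm-named and overlapping genes gave 17. The median log2 ratio stayed between -0.72 and -0.69 under its alternatives. A pseudocount of 0.1 FPKM shifted 3 of 100 ratios over 1.5 times (Alb, Pcdhga1 and Cnr1), and 1 FPKM shifted 7, Cyp2b10 among them. No paired analysis was possible because each genotype has 1 library. No setting shows how far a value would vary between mice.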
